A study of Mus musculus with 10 samples.

Results

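Sites of polycomb binding and of its decrease upon Pcl3 knockdown were described at 10 of the 22367 protein-coding genes annotated in the mouse genome. The 10 genes encode basic helix-loop-helix (bHLH) transcription factors of mesoderm and muscle: Hand1, Hand2, Twist1, Msc, Tcf15, Tcf21, Myf5, Myod1, Mesp1 and Mesp2. They were chosen by name. For each gene, a window of the gene body plus 5 kb on each side was taken at its GENCODE vM1 position in mm9, and every site of the 4 deposited lists that shared at least 1 base with the window was assigned to the gene.

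ChIP-seq was performed in mouse embryonic stem cells (ESCs). Suz12-TAP (FlagM2 antibody) and H3K27me3 were profiled in the BayGenomics gene trap line XG122, in which 1 Suz12 allele carries a TAP tag (genotype Suz12Suz12TAP/+), after expression of either scramble or Pcl3 shRNA. Pcl3-TAP (FlagM2 antibody) was profiled in E14 ESCs that expressed Pcl3-TAP together with shRNA6 or shRNA7, which target the wild type Pcl3, so the Suz12 and Pcl3 lists come from different lines. The 10 libraries comprised 6 ChIP and 4 input libraries, with 1 library per condition except for Pcl3-TAP and its input, which had 2 each and 1 site list between them. The shRNA cells were grown from picked clones, so a difference between scramble and Pcl3 shRNA and a difference between clones cannot be told apart. Each site has a single listed value, so no spread between cultures is known, and the values below have no error and were not tested.

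The lists hold 8876 Suz12 binding sites in scramble cells, 5722 of them listed again as Suz12-depleted upon Pcl3 knockdown, 5242 Pcl3 sites and 678 H3K27me3-depleted sites. The lists hold no expression values, so neither the ESC identity nor the knockdown could be checked here. Each site has a position and 1 p-value from the Skellam distribution, which describes the difference of 2 read counts. The p-value of a Suz12 or Pcl3 site is that of enrichment over input, and the p-value of an H3K27me3-depleted site is that of the decrease. All 5722 Suz12-depleted sites repeat the position and p-value of the binding site, so the size of the Suz12 decrease cannot be read from the lists for any gene. Site strength is given as −log10 p, and p-values written as 0, too small for the number format, were placed at 307.2, the value of the smallest p-value above 0. The authors recomputed the p-value over each joined stretch of windows, so strength reflects the width of a site as well as its enrichment. Suz12 sites within 2 units of 27.6 had a median width of 1100 bp, and those near 307.2 one of 4450 bp. No list of H3K27me3 sites in scramble cells was used here, so a gene without an H3K27me3-depleted site may or may not carry the mark.

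PRC2 is the polycomb complex that trimethylates lysine 27 of histone H3, and Suz12 is one of its core subunits. Pcl3 (Phf19) is a polycomb-like protein that associates with PRC2. In ESCs, PRC2 occupies many genes that are silent in these cells and are used later in development. The bHLH factors bind the E-box, CANNTG, usually as dimers with the broadly expressed E proteins Tcf3, Tcf4 and Tcf12, and the Id proteins, which lack a DNA-binding region, sequester the E proteins. Hand1 and Hand2 act in heart and in extraembryonic or limb mesoderm, Twist1 in cranial and limb mesenchyme, Tcf15 in somites, Tcf21 in the mesenchyme of visceral organs, Mesp1 in early cardiac mesoderm and Mesp2 in somite segmentation. Myf5 and Myod1 are determination factors of skeletal muscle, and Msc is a repressor related to Tcf21 that acts in muscle precursors.

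Sequences from mm9 are shown for genes whose CpG content and site content differ, because PRC2 in ESCs is known to favour CpG-rich DNA. The first 4 are the 300 bases before the gene start, in the direction of transcription, with CpG in capitals. Twist1 (chr12:34642236-34642535, plus strand) and Tcf15 (chr2:151968997-151969296, plus strand) have the most CpG at their starts among the 10 genes, with a strong and a weak Suz12 site. Mesp1 (chr7:86938675-86938974, minus strand) and Myf5 (chr10:106923191-106923490, minus strand) have 6 CpG each in these bases, and one has sites of all 4 lists and the other of none. Twist1 has 21 CpG and Tcf15 23. None of these bases is annotated as part of a transcript. The Mesp1 sites lie mostly or wholly after the bases shown. Its Suz12 site, repeated in the depleted list, begins 176 bp before the start, and its Pcl3 and H3K27me3-depleted sites begin 74 and 474 bp after it. The Mesp1 Suz12 site holds 5.90 CpG per 100 bp, and 10.2 in its central 500 bp, so the equal CpG counts describe the upstream bases alone.
Twist1: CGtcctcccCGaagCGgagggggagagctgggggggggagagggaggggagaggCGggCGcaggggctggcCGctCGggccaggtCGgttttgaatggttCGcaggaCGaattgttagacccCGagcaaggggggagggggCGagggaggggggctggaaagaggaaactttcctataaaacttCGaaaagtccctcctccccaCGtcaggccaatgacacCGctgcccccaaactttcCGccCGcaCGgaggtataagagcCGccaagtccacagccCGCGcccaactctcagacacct
Tcf15: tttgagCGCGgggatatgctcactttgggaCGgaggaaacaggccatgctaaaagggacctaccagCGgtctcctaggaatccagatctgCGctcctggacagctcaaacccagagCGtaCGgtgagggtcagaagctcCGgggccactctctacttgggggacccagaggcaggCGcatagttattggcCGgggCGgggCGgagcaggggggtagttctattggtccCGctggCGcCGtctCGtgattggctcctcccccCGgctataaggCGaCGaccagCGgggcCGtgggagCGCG
Mesp1: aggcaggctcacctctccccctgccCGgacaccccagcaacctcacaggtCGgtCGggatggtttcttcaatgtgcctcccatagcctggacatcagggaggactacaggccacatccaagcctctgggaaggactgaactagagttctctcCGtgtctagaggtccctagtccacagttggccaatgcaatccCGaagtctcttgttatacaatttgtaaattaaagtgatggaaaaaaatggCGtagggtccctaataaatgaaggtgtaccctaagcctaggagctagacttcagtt
Myf5: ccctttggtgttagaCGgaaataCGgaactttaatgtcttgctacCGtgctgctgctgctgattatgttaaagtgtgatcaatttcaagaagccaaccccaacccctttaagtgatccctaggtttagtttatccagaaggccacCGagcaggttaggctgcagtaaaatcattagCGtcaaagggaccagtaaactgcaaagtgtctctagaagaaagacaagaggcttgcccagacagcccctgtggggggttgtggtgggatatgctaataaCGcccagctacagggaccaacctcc

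For Msc, 294 coding bases at the centre of its Suz12 site are shown (chr1:14745536-14745829, minus strand, first coding exon). They hold 31 CpG and are also coding sequence of Gm9947 on the other strand.
Msc: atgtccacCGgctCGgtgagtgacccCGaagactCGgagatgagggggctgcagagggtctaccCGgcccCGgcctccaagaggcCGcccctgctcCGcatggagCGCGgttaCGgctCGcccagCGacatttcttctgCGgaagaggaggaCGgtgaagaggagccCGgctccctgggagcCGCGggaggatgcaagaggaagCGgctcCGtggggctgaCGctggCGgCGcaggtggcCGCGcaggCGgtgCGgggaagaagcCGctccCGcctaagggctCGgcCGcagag

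Suz12 binding sites lay in the windows of 9 of the 10 genes, against 28.8% of all protein-coding genes. Suz12-depleted sites lay in 8 of the 10 windows, against 20.7% of all genes, and Pcl3 sites in 8, against 14.7%. H3K27me3-depleted sites lay in 2 windows, those of Hand1 and Mesp1, against 3.13% of all genes, and the same 2 genes had sites of all 4 lists, against 2.24%. Myf5 had no site of any list. The windows of the 10 genes were short, 11548 to 15537 bp against a median of 25427 bp for all genes. In windows of 5 kb on each side of the gene start, which have the same length for every gene, the counts were again 9, 8, 8 and 2 of 10, and the shares of all genes were 24.6%, 17.5%, 12.5% and 2.09%. The Suz12 and Pcl3 counts were thus above the share of all genes in both windows, while the H3K27me3-depleted count rests on 2 genes.

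The 10 windows held 14 Suz12 sites, 13 of them Suz12-depleted, 22 Pcl3 sites and 4 H3K27me3-depleted sites. Of the 14 Suz12 sites, 13 were in the depleted list, against 64.5% of all Suz12 sites, and 13 shared bases with a Pcl3 site, against 44.3%. The exception to the first was the Tcf15 site and the exception to the second the Msc site. Both shares rise with site strength, as described below. Among other Suz12 sites within 2 units of −log10 p of each of the 14, 73.8% to 100% were depleted. Of the same sites, 25.1% to 100% shared bases with a Pcl3 site. The shares of 64.5% and 44.3% are thus not those of sites of equal strength. Of the 22 Pcl3 sites, 15 shared bases with a Suz12 site, against 76.9% of all Pcl3 sites. At each of the 9 genes with Suz12, 1 Suz12 site covered the gene start, and the other 5 sites lay before or after it, at Hand1, Hand2 and Tcf21.

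**Figure D1:**
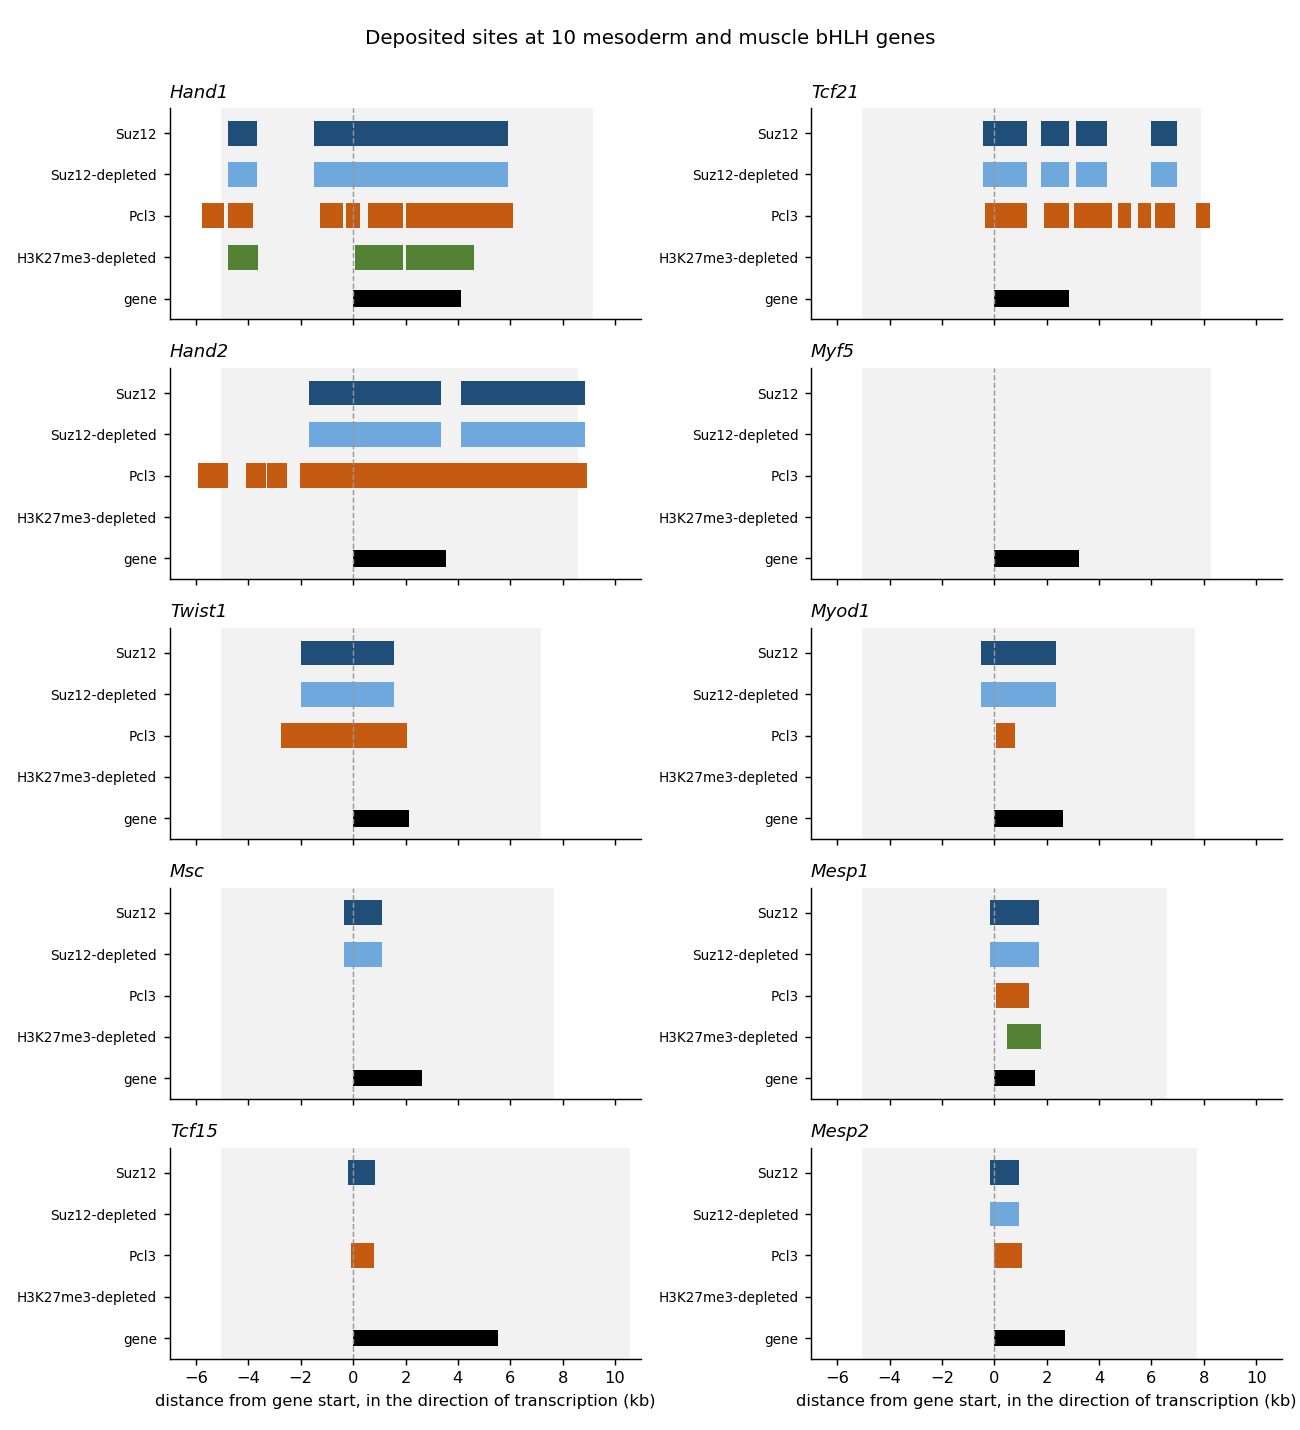
Sites of the 4 deposited lists at each of the 10 genes, plotted against distance from the gene start in kb, in the direction of transcription. Coloured bars are sites, the black bar is the gene body, grey marks the window of the gene body plus 5 kb each side and the dashed line the gene start. Myf5 has no bar, Tcf15 lacks a Suz12-depleted bar, Msc lacks a Pcl3 bar, and Hand1 and Mesp1 are the 2 genes with H3K27me3-depleted bars.

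Hand1 (ENSMUSG00000037335.7, chr11:57642207-57646320, minus strand) lay wholly inside a Suz12 site of 7400 bp (chr11:57640401-57647800), whose p-value was written as 0. This site was wider than 99.3% of all Suz12 sites. It ran from 1480 bp before the gene start to 5919 bp after it, and 20.0% of its bases lay upstream of the gene, 18.2% in untranslated exon sequence, 8.76% in coding exons, 28.6% in introns and 24.4% downstream. A second Suz12 site of 1100 bp (−log10 p of 27.6) was centred 4231 bp before the start, and both sites were Suz12-depleted. Together they covered 60.2% of the window. The upstream site began 4780 bp before the start, and another protein-coding gene, Gm11003, starts 4946 bp before it. The upstream site therefore cannot be assigned to Hand1 alone.

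Pcl3 at Hand1 was listed as 6 sites rather than 1. The strongest (−log10 p of 205.8) was 4100 bp wide and centred 4069 bp after the start used here, the most upstream one annotated. The site across that start was 550 bp wide with a −log10 p of 10.7, the weakest of the 6. Another Hand1 transcript starts farther downstream, so this value does not describe every Hand1 start. The next Pcl3 site, from 570 to 1919 bp after the start used, had a −log10 p of 36.3. Pcl3 sites covered 90.0% of the Suz12 bases in the window. The Pcl3 site farthest upstream (−log10 p of 16.3) also covered the start of Gm11003, 4946 bp before the start of Hand1.

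Hand1 had 3 of the 4 H3K27me3-depleted sites. The strongest (chr11:57641701-57644300) was 2600 bp wide, had a −log10 p of 16.2 and was stronger than 95.0% of the 678 sites in that list. The next (chr11:57644401-57646250) had a −log10 p of 12.8 and began 70 bp after the gene start, and the third lay at the upstream Suz12 site with a −log10 p of 7.38. They covered 95.9% of the Hand1 gene body. The third, near the start of Gm11003, cannot be assigned to Hand1 alone. Chromosome 11 carried 198 of the 678 H3K27me3-depleted sites, or 29.2%, and among genes with a Suz12 site 28.4% of those on chromosome 11 had an H3K27me3-depleted site in the window, against 10.5% on all chromosomes. The part of the chromosome in the Hand1 result was not tested. In both of the study's expression array tables, which were not analysed here, Hand1 is listed among the genes with higher signal in Pcl3 shRNA cells, and none of the other 9 genes is listed in either.

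The primers used for ChIP-qRT-PCR of Hand1 match chr11:57645237-57645495, inside the 7400 bp Suz12 site, the Pcl3 site with a −log10 p of 36.3 and the second H3K27me3-depleted site. Of the 259 bases between the outer ends of the primers, 79.9% are annotated as untranslated and 52 bases as coding. The primers, of 20 bases each, are shown because they mark where Hand1 was assayed by ChIP-qRT-PCR, whose values were not analysed here. They are written in capitals throughout, the first in the direction of Hand1 transcription and the second against it.
Hand1 forward: TTTGGACGTCTGAACCCTTC
Hand1 reverse: GGTGTGAGTGGTGATGATGG

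Hand2 (ENSMUSG00000038193.3, chr8:59799780-59803314, plus strand) had the largest share of its window covered by Suz12 and by Pcl3. A Suz12 site of 5050 bp with a p-value written as 0 covered the start, and a second of 4750 bp (−log10 p of 243.7) began 4121 bp after it, so that Suz12 sites covered 69.9% of the window and 95.4% of the gene body. Both were Suz12-depleted. A single Pcl3 site of 10950 bp, with a p-value written as 0, spanned both Suz12 sites and was wider than 99.1% of all Pcl3 sites. Another 3 Pcl3 sites of 750 to 1150 bp lay upstream, where no Suz12 site was listed, in DNA with 0.4 to 0.87 CpG per 100 bp.

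Further sites lay beyond the Hand2 window, where other genes were not searched. Within 30 kb of the gene and outside the window there were another 6 Suz12 sites, 5 of them Suz12-depleted, and 10 Pcl3 sites. The strongest of these Suz12 sites (−log10 p of 221.2) was centred 12246 bp after the start. No H3K27me3-depleted site lay nearer than 3308 kb. Hand1 and Hand2 thus had Suz12 sites of the same listed strength, and Hand1 alone of the pair had decreased H3K27me3 sites.

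Twist1 (ENSMUSG00000035799.5, chr12:34642536-34644682, plus strand) had 1 Suz12 site and 1 Pcl3 site, both across the start. The Suz12 site was 3550 bp wide with a −log10 p of 227.6, was Suz12-depleted and was stronger than 92.5% of all Suz12 sites. The Pcl3 site was 4800 bp wide with a −log10 p of 156.9 and contained the whole Suz12 site. Of the Suz12 site, 55.9% lay upstream of the gene. A further pair of sites lay just outside the window, a Suz12 site of 2900 bp (−log10 p of 127.0) centred 10065 bp after the start and a Pcl3 site of 2500 bp (−log10 p of 60.8) that overlapped it.

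Tcf21 (ENSMUSG00000045680.7, chr10:22537085-22539934, minus strand) had the most separate sites. Its 4 Suz12 sites were 1000 to 1650 bp wide and all Suz12-depleted. The strongest (−log10 p of 103.9) covered the start, and the others had a −log10 p of 33.6, 41.9 and 30.3 at 2308, 3708 and 6483 bp after it, so that the last 2 lay downstream of the gene. Its 7 Pcl3 sites, with the strongest at the start (−log10 p of 50.3), covered 91.8% of the Suz12 bases. The 3 Pcl3 sites of Tcf21 without Suz12 were its weakest, with −log10 p between 7.58 and 7.67.

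Msc (ENSMUSG00000025930.5, chr1:14743427-14746047, minus strand) was the only one of the 9 Suz12-bound genes without a Pcl3 site, and the nearest Pcl3 site was 245.7 kb away. Its Suz12 site of 1450 bp (chr1:14744951-14746400, −log10 p of 71.0) covered the start and was Suz12-depleted. Of genes with a Suz12 site, 27.2% had a depleted site and no Pcl3 site. Among the 107 other Suz12 sites within 2 units of −log10 p of the Msc site, 99.1% were Suz12-depleted and 69.2% shared bases with a Pcl3 site, so a depleted site without Pcl3 at this strength was the less frequent case. The start of Gm9947, an overlapping protein-coding gene on the other strand, lay 512 bp after the Msc start and inside the same Suz12 site, so the site cannot be assigned to one of the 2 starts.

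Tcf15 (ENSMUSG00000068079.5, chr2:151969297-151974833, plus strand) had the reverse combination, a Pcl3 site without Suz12 depletion. Its Suz12 site of 1050 bp (chr2:151969101-151970150, −log10 p of 22.3) was the weakest of the 9 sites at gene starts, and 85.7% of it was covered by a Pcl3 site of 900 bp (−log10 p of 18.0). Of genes with a Suz12 site, 3.17% had a Pcl3 site and no depleted site. Among the 478 other Suz12 sites of like strength, 73.8% were Suz12-depleted and 25.1% shared bases with a Pcl3 site. The nearest Suz12-depleted site was 37.4 kb from Tcf15. Of the Suz12 site, 48.9% was coding sequence, and the site held 11.6 CpG per 100 bp, more than 97.9% of all Suz12 sites.

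The 2 muscle determination genes differed. Myod1 (ENSMUSG00000009471.3, chr7:53631844-53634462, plus strand) had a Suz12 site of 2850 bp across its start (−log10 p of 113.4), which covered 90.0% of the gene body and was Suz12-depleted. Its Pcl3 site was 750 bp wide with a −log10 p of 12.3, the weakest of the strongest Pcl3 sites of the 8 genes, and covered 26.3% of the Suz12 bases. The Pcl3 site held 8.13 CpG per 100 bp and the whole Suz12 site 4.63. A stronger Suz12 site (−log10 p of 228.5), also Suz12-depleted, was centred 20832 bp after the Myod1 start and outside the window. Other genes that start there were not searched, so this site was not assigned to Myod1.

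Myf5 (ENSMUSG00000000435.1, chr10:106919964-106923190, minus strand) had no site of any list, and the nearest Suz12 site was 209.8 kb away. Its neighbour Myf6, whose start lies 8595 bp from that of Myf5, had none either. The last of the myogenic factors, Myog, also had no site in its window, with the nearest Suz12 site 5.73 kb from the gene. Among these 4 factors, which together direct skeletal muscle formation, sites were therefore listed at Myod1 and not at the other 3.

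Mesp1 (ENSMUSG00000030544.5, chr7:86937127-86938674, minus strand) and Mesp2 (ENSMUSG00000030543.8, chr7:86955613-86958317, plus strand) are neighbours that are transcribed away from each other, with 16939 bp between their starts and windows that do not overlap. The Mesp1 Suz12 site of 1900 bp (chr7:86936951-86938850, −log10 p of 112.0) contained the whole gene. The Mesp2 Suz12 site of 1100 bp (chr7:86955451-86956550, −log10 p of 27.2) covered 34.7% of the gene body. Both were Suz12-depleted, and both had a Pcl3 site, with a −log10 p of 38.5 at Mesp1 and 23.3 at Mesp2. Mesp1 had an H3K27me3-depleted site of 1300 bp (−log10 p of 7.46), which lay in the weaker part of that list, with 28.6% of its sites weaker, and Mesp2 had none. Among genes with a Suz12 site on chromosome 7, 11.5% had an H3K27me3-depleted site.

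**Figure D2:**
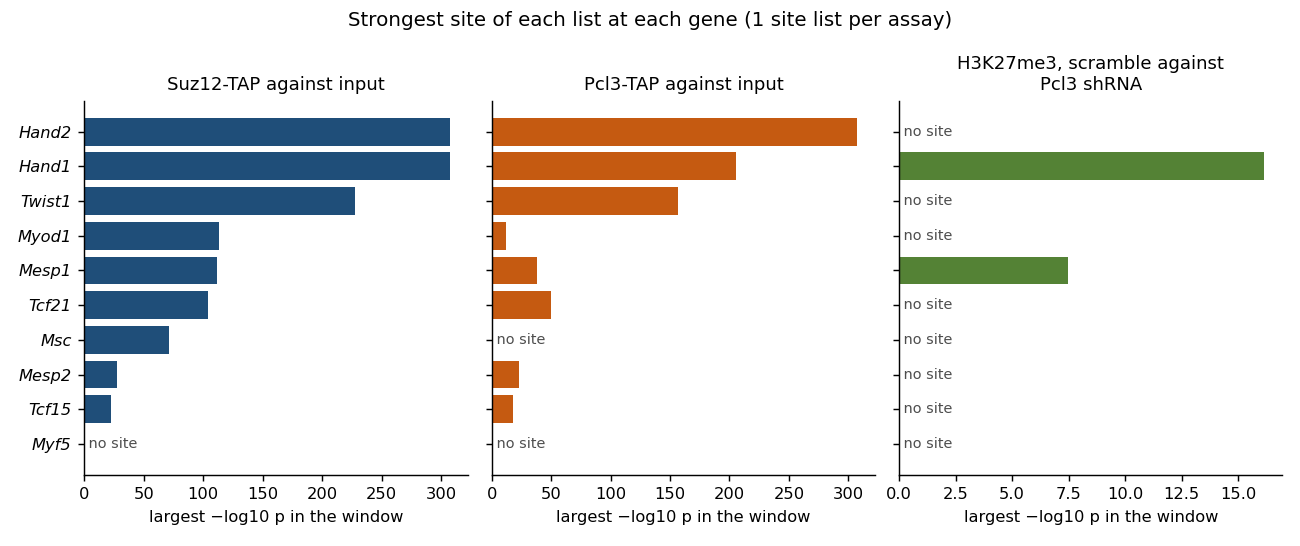
Largest −log10 p of a Suz12, Pcl3 or H3K27me3-depleted site in the window of each gene, ordered by Suz12. Bars start at 0, the H3K27me3 axis has its own scale, values of 307.2 stand for p-values written as 0, and each bar is a single listed value without error. Hand2 and Hand1 head the Suz12 order, Tcf15 closes it before Myf5, and Msc and Myf5 have no Pcl3 site.

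In the order of the strongest Suz12 site, Hand1 and Hand2 came first at 307.2, followed by Twist1 at 227.6, Myod1 at 113.4, Mesp1 at 112.0, Tcf21 at 103.9, Msc at 70.97, Mesp2 at 27.22 and Tcf15 at 22.28. With no replicate, whether neighbours in this order differ is not known. Site width enters these values, so the order is not one of enrichment alone. The median over the 9 bound genes was 112.0, against 35.75 over the 6442 protein-coding genes with a Suz12 site, and the median length covered by Suz12 sites was 2850 bp, against 1400 bp. The order of Pcl3 differed from it. Hand2 led at 307.2, then Hand1 at 205.8 and Twist1 at 156.9, followed by Tcf21 at 50.29, Mesp1 at 38.48, Mesp2 at 23.30, Tcf15 at 18.03 and Myod1 at 12.30. Myod1 stood between Twist1 and Mesp1 by Suz12 and was last of the 8 by Pcl3. The median over the 8 genes was 44.39, against 21.81 over all genes with a Pcl3 site.

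Membership in the depleted list followed the strength of the Suz12 site over the whole series. When all Suz12 sites were divided into 10 groups of equal size by strength, 2.37% of the weakest group and 100% of the strongest were Suz12-depleted, and 10.1% and 99.7% shared bases with a Pcl3 site. The sites of the 10 genes lay in groups 5 to 10. The Tcf15 site lay in group 5, where 69.1% were depleted and 24.4% shared bases with Pcl3, and the Mesp2 site and the upstream Hand1 site in group 6, where 89.0% were depleted and 38.0% shared bases with Pcl3. The Msc site lay in group 8, with shares of 99.7% and 75.9%. For Hand1, Hand2, Twist1, Myod1, Mesp1 and Tcf21, the site at the start lay in group 9 or 10, where 99.9% or more were depleted, so that their depletion was that of nearly every site of their strength. Sites that shared bases with an H3K27me3-depleted site made up 19.4% of group 10.

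**Figure D3:**
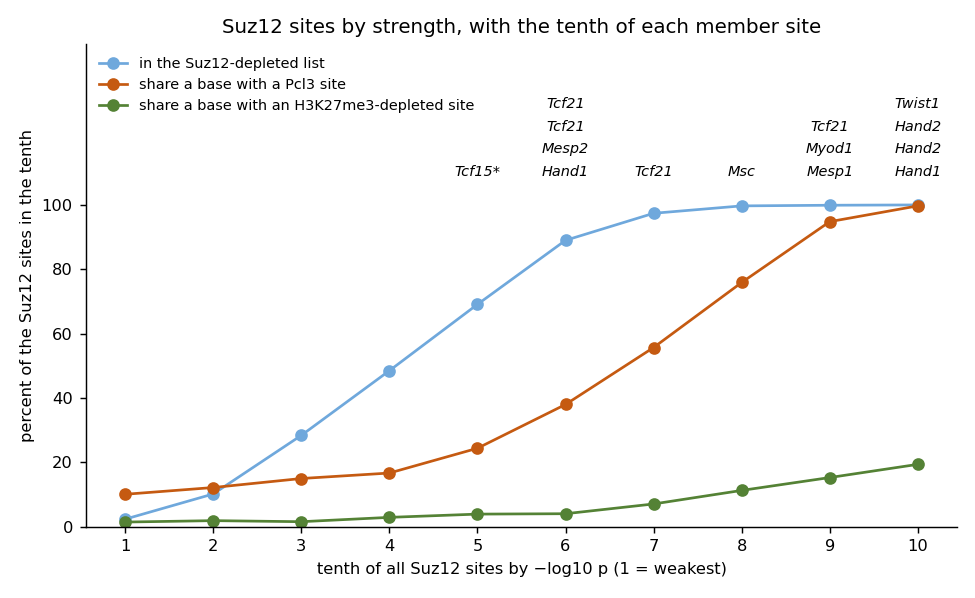
Percent of all Suz12 sites in the Suz12-depleted list, or sharing at least 1 base with a Pcl3 or an H3K27me3-depleted site, for 10 groups of equal size by −log10 p (1 is weakest). Names above the lines give the group of each of the 14 Suz12 sites of the genes, and the asterisk marks the Tcf15 site, the single one that is not Suz12-depleted. In group 8, where the Msc site lies, 75.9% share bases with Pcl3.

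Against the 6442 genes with a Suz12 site, 8 of the 9 bound genes had a depleted site where 71.7% of such genes did, 8 had a Pcl3 site where 47.7% did, and 2 had an H3K27me3-depleted site where 10.5% did. These shares cover genes of all site strengths and were not matched to the strength of the 9 genes.

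The CpG content of the starts varied widely among the 10 genes. In 1000 bp around the annotated start, Tcf15 had 11.7 and Twist1 11.4 CpG per 100 bp, more than 96.4% of all genes in each case. Msc had 5.9, Hand2 5.3, Mesp2 5.0, Myod1 4.3, Tcf21 3.8, Mesp1 3.6, Myf5 2.7 and Hand1 2.6. The median was 4.65 for the 10 genes, 4.0 for all genes, 6.0 for genes with a Suz12 site and 2.5 for the others. Hand1 and Myf5 had nearly the same density at the start, and Hand1 had the 7400 bp Suz12 site and Myf5 none. The Hand1 start used here is the most upstream one annotated, and another of its transcripts starts downstream of this 1000 bp window.

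Of the 10 starts, 3 were CpG-rich by the criteria of at least 55% GC and a ratio of observed to expected CpG of at least 0.6, those of Twist1, Msc and Tcf15, against 38.5% of all genes. All 3 had a Suz12 site, where 43.3% of all genes with such starts did, and 2 had a Pcl3 site, where 24.1% did. Of the 7 starts that were not CpG-rich, 6 had a Suz12 site in the window, where 19.7% of such genes did. At the strongest Suz12 site of each bound gene the density ran from 3.73 at Hand1 to 11.6 CpG per 100 bp at Tcf15, with a median of 5.90, against 5.41 over all Suz12 sites. In the central 500 bp of the same sites the median was 10.2, against 7.0 over all Suz12 sites. In the central 500 bp of the sites, GCGCGC, searched on both strands, was present at 7 of the 14 Suz12 sites, against 37.5% of all Suz12 sites.

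**Figure D4:**
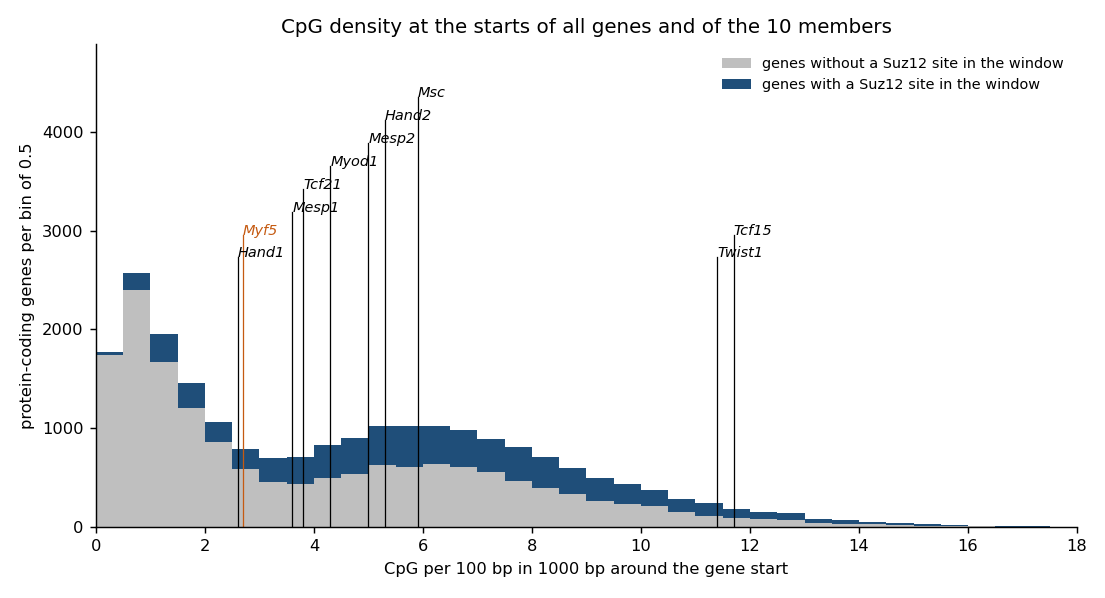
Number of protein-coding genes by CpG per 100 bp in 1000 bp around the gene start, in bins of 0.5, split by whether the window holds a Suz12 site. Vertical lines mark the 10 genes, with Myf5, which has no site, in orange. Tcf15 and Twist1 stand at 11.7 and 11.4, and Hand1 and Myf5 side by side at 2.6 and 2.7.

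The E-box letters CANNTG, searched on both strands, occurred in the 300 bases before the start of 6 of the 10 genes, Hand1, Hand2, Tcf21, Myod1, Mesp1 and Mesp2, against 70.4% of all genes. The 4 genes without it were Twist1, Msc, Tcf15 and Myf5. GCGCGC occurred in the same bases of 1 of the 10 genes, that of Msc, against 14.0% of all genes.

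Of the 3 E protein genes, the partners of these factors, only Tcf12 had sites, a Suz12 site with a −log10 p of 63.53 that was Suz12-depleted and Pcl3 sites of up to 16.51. Tcf3 and Tcf4 had no site of any list. The 4 Id genes all had Suz12 sites, at 230.1 for Id4, 108.2 for Id3, 52.19 for Id2 and 19.66 for Id1, and all but Id1 had both Suz12-depleted and Pcl3 sites. Of the 4 Mef2 genes, whose products act together with the myogenic factors, 3 had Suz12 sites of at most 35.81 and 1, Mef2c, had a Suz12-depleted site. The shares of all genes were 28.8% and 20.7%. The windows of Tcf4, Tcf12, Mef2a and Mef2c were 151696 to 353822 bp long, against at most 15537 bp among the 10 genes. Counts of sites in these windows are therefore not like those of the 10 genes.

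Of 10 other bHLH genes of mesoderm, blood and muscle, 7 had a Suz12 site, 6 a Suz12-depleted site, 5 a Pcl3 site and 1 an H3K27me3-depleted site. Tal1 and Lyl1, regulators of blood formation, had Suz12 sites with p-values written as 0. Twist2, the closest relative of Twist1, had a Suz12 site at 278.4 against 227.6 for Twist1, and, unlike Twist1, an H3K27me3-depleted site at 9.37. Msgn1, Myog and Myf6 had no site.

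The 17 proneural and oligodendrocyte bHLH genes, the neural counterpart of the 10 genes, had a Suz12 site in 16 windows, a Suz12-depleted site in 16, a Pcl3 site in 15 and an H3K27me3-depleted site in 5. Their median strongest Suz12 site, over the bound genes, was at 300.7, against 112.0 for the mesoderm and muscle genes, and their median Suz12 coverage was 4464 bp, against 2850 bp. Hand1 and Hand2 were at the listed maximum, which Neurog1 and Atoh1 also reached. Mesp2 at 27.2 and Tcf15 at 22.3 lay at the weak end of the neural genes, among Neurod6 at 16.07, Nhlh1 at 25.95 and Neurod1 at 35.82. In both lists, 1 gene had no site, Myf5 and Neurod4. The 2 lists were chosen by name with the results known, and their difference was not tested.

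**Figure D5:**
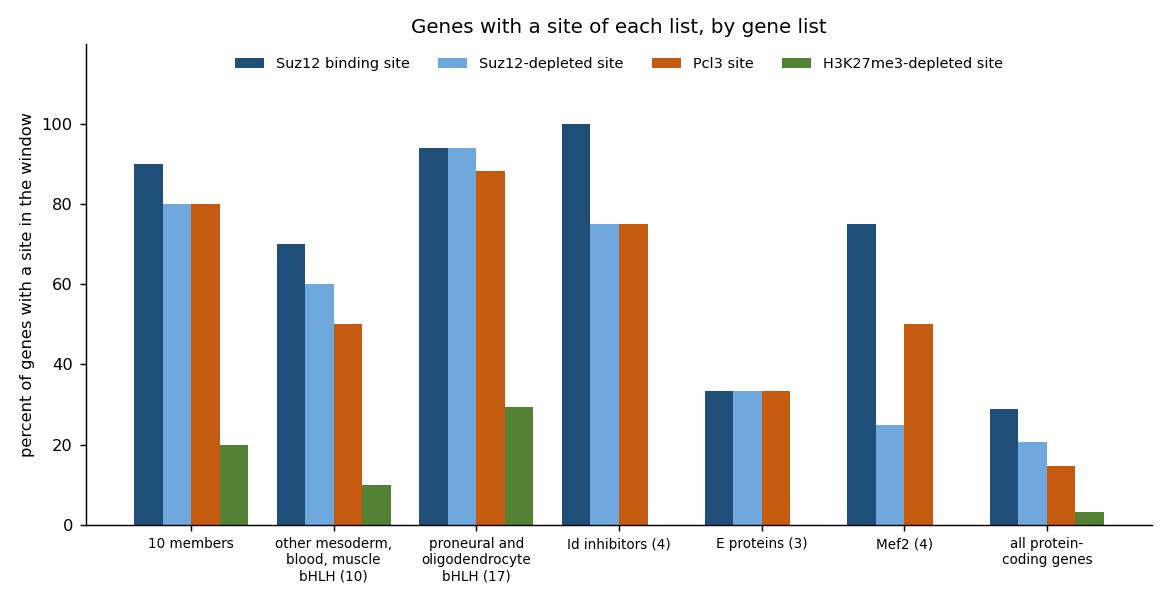
Percent of the genes of each list with a Suz12, Suz12-depleted, Pcl3 or H3K27me3-depleted site in the window, with the number of genes in brackets and all 22367 protein-coding genes at the right. Bars start at 0 and have no error, and window length differs between the lists. The 10 genes stand at 90%, 80%, 80% and 20%, and all genes at 28.8%, 20.7%, 14.7% and 3.13%.

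Outside these lists, the 3 protein-coding genes most like Hand1 in the ranks of their strongest Suz12, Pcl3 and H3K27me3-depleted sites, by Euclidean distance over the ranks of all genes, were Wnt7b, Scarf2 and Hic1. All 3 had a Suz12 site at 307.2. Their Pcl3 sites reached 241.6, 173.4 and 158.4, against 205.8 at Hand1, and their H3K27me3-depleted sites 14.73, 14.68 and 19.57, against 16.15. Hic1 also lies on chromosome 11.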

How the data were processed

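ChIP-seq site lists of mouse ESCs were used, with samples grouped by their labels. Reads were placed on mm9 with Bowtie by the authors, who retained reads with a unique match, scaled the background of each pair of libraries, scanned the genome with the Skellam test and merged adjoining windows that passed. The 4 deposited lists give a p-value for every site, and nothing else measured. The lists hold no read counts, so depth and the precision of a site are unknown. Equal scaling of the background lets a difference in chromosome copy number enter the depleted lists.

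Positions are 1-based. Overlap required 1 shared base. The 10 genes and all comparison lists were chosen by name, with earlier results of these data known, and every gene of each list is counted. Sites of like strength, groups by strength and sites within 30 kb were chosen after values were seen. Sites outside a window were not assigned to a gene. Sequences and CpG were read from the mm9 genome. Alternatives were other windows, a rule on site centres and smaller p-values. The scripts were checked on simulated data, with 0 differences in 4000 windows and 200 sequences. Python 3.11.15, numpy 2.4.6 and matplotlib 3.10.9 were used. The array and ChIP-qRT-PCR data were not analysed here.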

Additional observations from a re-analysis of the deposited data

How the results depend on the processing

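Of 45 recomputed values, 39 equalled the reported value or, for counts, lay within 1.5 times of it. The counts of genes with a Suz12, Suz12-depleted or Pcl3 site stayed at 9, 8 and 8 with the gene body alone, with 2 kb or 10 kb on each side, with 5 kb on each side of the start, with the site centre required inside the window and with p-values of at most 1e-10 or 1e-12. For the Suz12-depleted list these p-values are those of binding, repeated. The 2 cutoffs therefore select on enrichment over input and cannot show how firm the decrease is. With p-values of at most 1e-10 and of at most 1e-12, the count with an H3K27me3-depleted site fell from 2 to 1 and the count with all 4 lists from 2 to 1, since the Mesp1 site has a −log10 p of 7.46, which leaves Hand1. The median over the 10 genes of bases covered by Suz12 was 2375 bp, and 1556 bp over the gene body alone. The median CpG density at the strongest Suz12 site was 5.90 per 100 bp over the whole site and 10.2 in the central 500 bp, against 5.41 and 7.0 over all Suz12 sites. No paired analysis was possible because the results come from no test, and the 2 Pcl3-TAP libraries share 1 site list. Depth limits every value in an unknown way, since the lists hold no counts, and a gene without a site is one without a listed site.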
